A study of Mus musculus with 9 samples.

Results

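The adult mouse cornea was set against the adult mouse lens, the adjoining transparent tissues of the front of the eye. The comparison takes 5 of the 9 arrays of the series, 3 of cornea and 2 of lens, and all 12422 probe sets of the array that are not controls. All tissues came from mice whose strain the sources used here do not give. Adult corneas, from mice of 7 weeks, were cut free of the limbus and their epithelium was scraped away before RNA extraction, which enriched for the stroma without removing all epithelial RNA. Lens RNA was pooled, also from mice of 7 weeks. The other 4 arrays, 2 of cornea at postnatal day 10 (P10) and 2 of a digital flexor tendon at 7 weeks, entered the model for the spread between arrays and show where else a gene was read. Each array held an independent RNA preparation, so p-values measure the spread between preparations, and the small number of arrays limits the precision. The cornea arrays had already served an earlier study by the same group. Any batch that goes with that and the tissue itself cannot be told apart. In whole tissue, fewer cells of a type and less RNA per cell cannot be told apart either.

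The cornea is built of a stratified epithelium on a basement membrane, a stroma of collagen fibrils kept evenly spaced by small leucine-rich proteoglycans, and an inner endothelium. The lens is a closed ball of epithelium and elongated fibre cells inside a thick basement membrane, the lens capsule. Its fibres are packed with crystallins, lose their organelles and live largely on anaerobic glycolysis. Both tissues hold very large amounts of a few soluble proteins, which are metabolic enzymes in the cornea and crystallins in the lens.

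Values are expression indices in arbitrary units, a linear signal per probe set that can fall below 0. Differences are cornea minus lens on the log2(index + 16) scale with values below 0 set to 0. Folds come from the same scale and understate the difference of low genes, and none is given where an array of the lower tissue read 0 or less. A probe set was called at a limma adjusted p under 0.05. Under this rule 5071 probe sets (40.8%) differed, of which 2667 (21.5% of all) were higher in cornea and 2404 (19.4% of all) were lower, and 1613 (13%) and 1569 (12.6%) of them differed at least 2-fold. Without lens replicate 2 the higher calls came to 1529. With each gene taken by its brightest probe set, 43.7% of 8251 genes were called, 1937 (23.5%) higher and 1666 (20.2%) lower, and the median log2 difference was 0.06. The 3 cornea and 2 lens arrays did not overlap for 7120 probe sets (57.3%). Median indices per array lay between 67.6 and 78.6 on these 5 arrays, and cornea replicate 1 stood apart in its ratios of 3′ to 5′ control signal, 2.25 for Gapdh and 4.69 for actin, against 0.831 to 1.04 and 1.65 to 2.07 on the other 4.

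**Figure D1:**
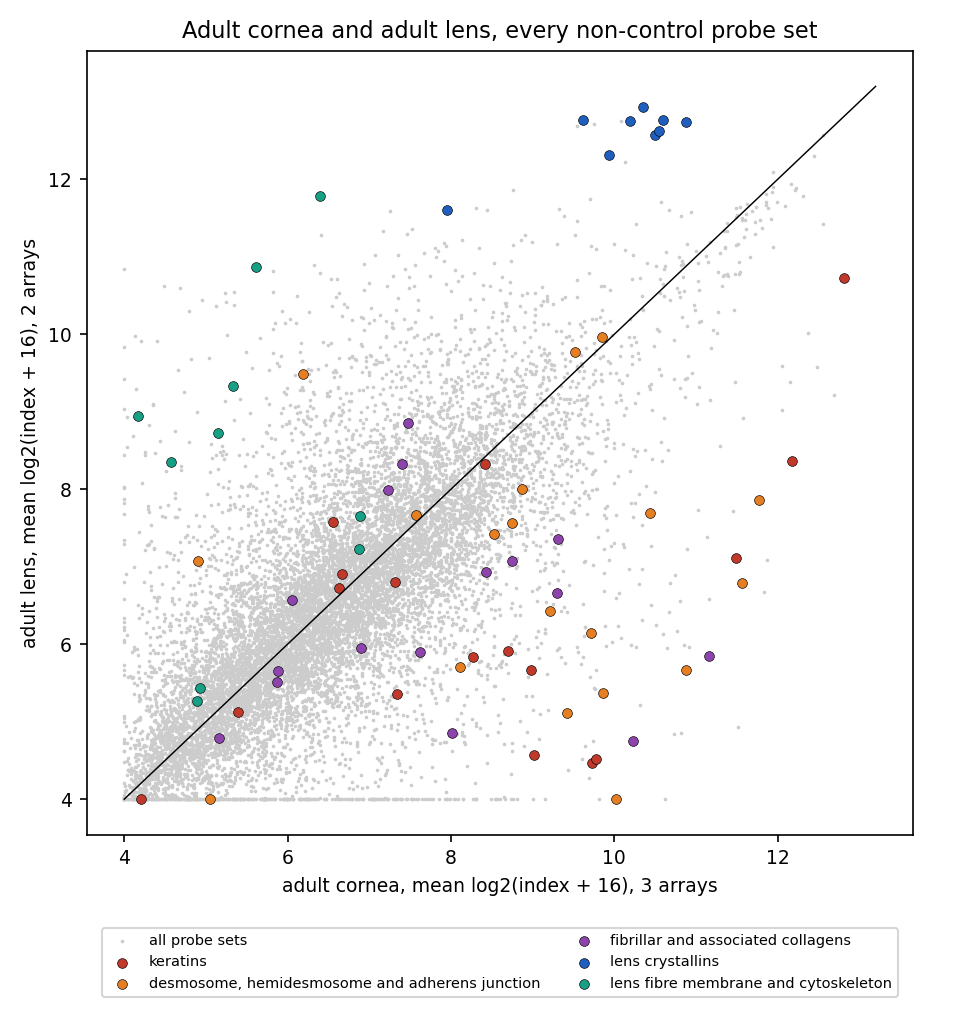
Mean log2(index + 16) of every non-control probe set in adult cornea (x axis, 3 arrays) and adult lens (y axis, 2 arrays). Grey points are all probe sets, coloured points are genes of 5 lists, and the line marks equal levels. The 9 lens crystallins lie above the line, and the 10 called keratins below it.

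Both labels fitted their defining markers. The keratan sulphate proteoglycan gene Kera read 311, 183 and 144 on the cornea arrays and 15.8 and 7.69 on the lens arrays, and Krt12, the keratin of corneal epithelium, read 6614, 6685 and 8290.3 in cornea and 1758 and 1603 in lens. Mip, the water channel of lens fibres, read 27.2, 34.7 and 37.7 in cornea and 1918 and 1799.6 in lens. The groups did not overlap for any of these genes, as was so for 57.3% of all probe sets. Krt12 on the lens arrays was nonetheless above its level in tendon, at 401 and 257. Krt6a on the lens arrays was above tendon as well, at 365 and 269 in lens and 181 and 143 in tendon, and so was the corneal enzyme gene Aldh3a1, at 696 and 484 in lens and -6.41 and -14.1 in tendon. Krt14 read 4.18 and 10.2 and Krt15 read 0.721 and 13.4 on the lens arrays, below tendon at 124 and 20.5 for Krt14 and 121 and 43.1 for Krt15. The part of corneal RNA in the lens preparations was not tested.

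Crystallins, the structural proteins that give the lens its refractive power, were lower in cornea for all 9 genes measured, against 20.2% of all genes, with a median log2 difference of -2.38. All 9 were lower in each limma alternative and in the methods' test. Cryaa, whose product is an alpha crystallin and small heat shock protein, read 1279.7, 2443 and 2078 in cornea and 6405 and 7231 in lens. Cornea therefore stood at 28.4% of the lens mean, the highest share among the 9, and the log2 difference was -1.86 ± 0.35 (SE; limma adjusted p = 0.00159). Cryab, the other alpha crystallin, read 226, 251 and 220.5 in cornea and 3252 and 2958 in lens, 7.48% of the lens mean and the lowest share of the 9, at a log2 difference of -3.65 ± 0.19 (limma adjusted p = 3.27e-07). Unlike the rest of the list, Cryab was above its corneal level in tendon, at 356 and 371.

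The beta and gamma crystallins, which pack the lens fibres, lay between these. Crybb2 read 846, 1441 and 1250.3 in cornea and 6628 and 7122 in lens, 5.90-fold lower (limma adjusted p = 1.78e-05). Cryba1 read 1147, 1747 and 1468 in cornea and 5926 and 6202 in lens, 4.20-fold lower (limma adjusted p = 0.000127), and Crygs, the gamma crystallin of the adult lens cortex, read 1230.5, 1605 and 1631 in cornea and 6002 and 6652 in lens, 4.24-fold lower (limma adjusted p = 0.00012). The lowest crystallin value in lens, 2958 for Cryab, was thus above every corneal value of the list. Within the clustered gamma crystallins, Crygc read 627, 971 and 750.3 in cornea and 6486 and 7492 in lens, and Crygb read 789, 1055 and 1083 in cornea and 5027 and 5164 in lens. Crygd read 869, 1729 and 1416 in cornea and 7582 and 8079 in lens, and Cryge read 1022, 2034 and 1724 in cornea and 6557 and 7310.5 in lens. Their log2 differences ran from -3.15 for Crygc to -2.17 for Cryge (limma adjusted p = 4.15e-06 and 0.000188). These genes are near copies of each other and some of their probe sets are shared by design, so signal may be split between them. A further probe set of Crygd read 166, 147 and 239 in cornea and 171 and 200.1 in lens, and one of Crybb2 read 194, 146 and 173 in cornea and 154 and 148 in lens, neither of them called.

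In every cornea preparation the summed index of the 9 crystallins was a sizeable part of that in lens, at 8035, 13276 and 11621 on the cornea arrays and 53866 and 58209 on the lens arrays, but 581 and 636 in tendon. Cornea replicate 1 was the lowest of the 3 for 8 of the 9 genes. At P10 the sums were 12713 and 21284. Whether lens signals of this height were saturated was not tested.

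Of 10 measured membrane and cytoskeletal genes of the lens fibre, 6 were lower in cornea (60%, against 20.2% of all genes) and 0 higher. The median log2 difference of the list was -3.68, over a range of -5.38 to -0.36. Bfsp1, which encodes the beaded filament protein filensin, read 61.5, 65.7 and 79.5 in cornea and 3731 and 3300.0 in lens, 41.7-fold lower (limma adjusted p = 5.06e-08). Mip, given above, was 38.2-fold lower (limma adjusted p = 1.82e-07), and Gja3, a gap junction protein of the fibres, read 3.32, 2.57 and -0.0567 in cornea and 546 and 415 in lens (log2 difference -4.78 ± 0.22, limma adjusted p = 2.17e-07). These corneal values lay close to those of tendon, where Bfsp1 read 46.3 and 42.6, Mip 11.7 and 14.2 and Gja3 0.466 and 7.27.

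Further lens fibre genes showed the same order. Caprin2 read 29.7, 23.6 and 20.1 in cornea and 801 and 492 in lens, 15.99-fold lower (limma adjusted p = 6.25e-07). The adhesion genes Nrcam and Cdh2, or N-cadherin, were 13.8-fold and 11.97-fold lower (limma adjusted p = 1.23e-06 and 1.45e-05). Bfsp1, Mip, Caprin2, Nrcam and Cdh2 stood in cornea at 1.79% to 4.87% of the lens mean, and over the whole list the log2 differences overlapped with those of the crystallins, at -3.65 to -1.86. Capn3, whose lens splice form is a calpain protease of the fibres, was not called by its brightest probe set, which read 85.8, 70.4 and 172 in cornea and 173 and 199 in lens (limma adjusted p = 0.0573), while its other 2 probe sets were called lower at log2 differences of -1.24 and -1.15 (limma adjusted p = 0.00087 and 0.00109). Bfsp2 and Lim2, other filament and membrane genes of the fibre, had no probe set of their own here.

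**Figure D2:**
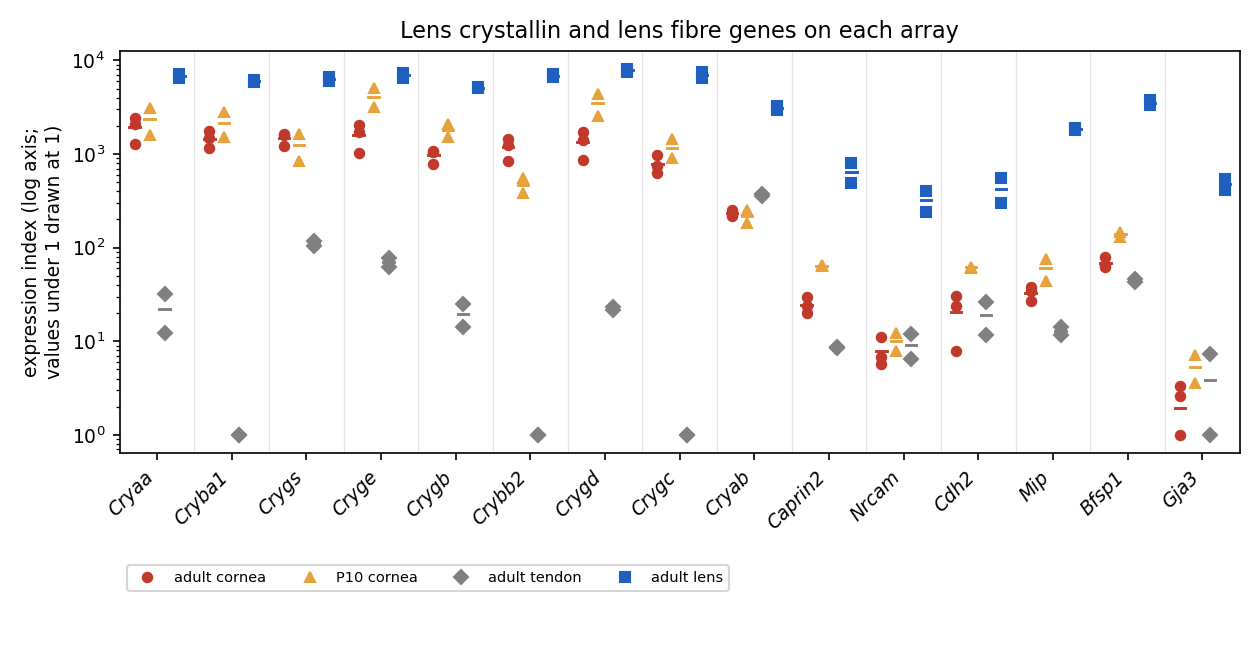
Expression index on a log axis for 9 lens crystallin and 6 lens fibre genes, with points for arrays and bars for group means, in adult cornea, P10 cornea, adult tendon and adult lens. Corneal crystallins lie at 220.5 to 2443, above the tendon values for 8 of the 9 genes, whereas the fibre genes on the right lie at or below 79.5 in adult cornea.

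Promoters of the gamma crystallins that were lower together were compared by sequence, since the 4 genes lie in 1 cluster on chromosome 1. Sequences are from RefSeq, build GRCm38.p6, each the 120 bases before the annotated transcript start, written 5′ to 3′ on the gene's strand. Capitals mark the longest run that all 4 share, 8 bases holding the TATA box, and every gene is on the minus strand.
Crygb, chr1:65082291-65082410: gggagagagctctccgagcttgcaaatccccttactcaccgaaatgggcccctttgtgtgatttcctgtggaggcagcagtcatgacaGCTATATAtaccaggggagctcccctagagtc
Crygc, chr1:65073533-65073652: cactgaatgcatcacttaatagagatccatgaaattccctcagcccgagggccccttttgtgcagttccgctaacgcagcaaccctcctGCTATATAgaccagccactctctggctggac
Crygd, chr1:65063441-65063560: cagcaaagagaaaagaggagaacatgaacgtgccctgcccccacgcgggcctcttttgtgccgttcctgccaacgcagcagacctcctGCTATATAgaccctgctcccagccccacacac
Cryge, chr1:65051164-65051283: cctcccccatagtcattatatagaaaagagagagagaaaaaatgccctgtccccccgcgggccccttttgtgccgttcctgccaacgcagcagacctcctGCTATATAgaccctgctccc
Crygd and Cryge shared a run of 56 bases, Crygc shared 18 bases with either, and Crygb shared at most 10 with any other.

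The wider windows were also searched for TGCTGA, the core of a half-site that Maf proteins, transcription factors of lens fibre development, can bind. On either strand within 250 bases upstream it was found in 4 of 8 crystallin windows (50%) and 4 of 12 lens fibre windows (33.3%). The 12 lens fibre windows belong to 8 genes. Among all 32851 windows 16.1% held TGCTGA. The share was 20% for keratins, 25% for fibrillar and associated collagens and 0% for desmosome, hemidesmosome and adherens junction genes. TGCTGA is shown in Cryaa, chr17:31677811-31677930 on the plus strand, with the match in capitals.
Cryaa: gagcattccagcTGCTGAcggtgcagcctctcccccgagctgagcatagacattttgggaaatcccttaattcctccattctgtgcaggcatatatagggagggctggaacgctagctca
TGANTCA, the AP-1 type site, was in 1 crystallin window (12.5%) and 6.75% of all, and TATAAA in 2 (25%) and 12.4% of all. Such matches describe letters only.

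The list of lens and eye transcription factors, which also holds the cell cycle inhibitor gene Cdkn1c, went both ways. Of its 25 genes 9 were higher in cornea (36%, against 23.5% of all genes) and 10 lower (40%, against 20.2%). Hsf4, the heat shock factor needed for fibre maturation, read -3.74, 1.11 and -9.64 in cornea and 408 and 311 in lens (log2 difference -4.51 ± 0.26, limma adjusted p = 6.85e-07). Prox1, a homeobox factor of fibre elongation, read 7.36, -2.64 and 11.2 in cornea and 233 and 175 in lens (log2 difference -3.33 ± 0.27, limma adjusted p = 5.76e-06). Both factors were near 0 in each cornea preparation. Sox2 and Cdkn1c, a cell cycle inhibitor of fibre differentiation, were 17.5-fold and 19.6-fold lower (limma adjusted p = 8.34e-07 and 6.01e-07). Maf was low in both tissues, at 18.2, 37.4 and 27.7 in cornea and 72.01 and 61.2 in lens (log2 difference -0.94 ± 0.22, limma adjusted p = 0.00603).

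Of the factors higher in cornea, Pax6, the master regulator of eye formation that both tissues use, read 833, 619 and 579.5 in cornea and 326 and 199 in lens, 2.53-fold higher (limma adjusted p = 0.00161). Tendon read 3.80 and 2.39, so Pax6 was present in both eye tissues. Tfap2b, an AP-2 factor of neural crest derivatives, read 91.5, 201 and 138 in cornea and 16.5 and 5.11 in lens, 5.85-fold higher (limma adjusted p = 0.000111). Six3 and Cdkn1b had probe sets called in opposite directions.

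Epithelial genes were mostly higher in cornea, although the epithelium had been scraped. Of 17 keratins 10 were higher and 0 lower, against 23.5% of all genes higher, with a median log2 difference of 2.08. Krt12, given above, was 4.23-fold higher (limma adjusted p = 2.26e-05). Krt14, the keratin of basal cells, read 759, 1067 and 789 in cornea and 4.18 and 10.2 in lens, 38.2-fold higher (limma adjusted p = 7.03e-06). Krt15, a keratin of basal and limbal epithelium, read 831, 1139 and 612 in cornea and 0.721 and 13.4 in lens, 38.4-fold higher (limma adjusted p = 2.42e-06). Cornea replicate 2 was the highest of the 3 for Krt14 and Krt15, yet no lens array came near any cornea array.

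Krt13, a keratin of wet stratified epithelium, read 362, 851 and 409 in cornea and 10.3 and 5.47 in lens, 21.8-fold higher (limma adjusted p = 2.09e-06). Krt6a and Krt6b, near copies that mark epithelial stress and turnover, were 14.1-fold and 20.7-fold higher by their brightest probe sets (limma adjusted p = 3.67e-07 and 2.05e-07), and their signals may be shared. Without cornea replicate 3, 1 keratin was called lower. Krt12 has a promoter with 3 copies of CACCC, a box that Kruppel-like factors can bind, within the 120 bases of chr11:99422260-99422379 on the minus strand, marked in capitals on either strand (GGGTG is its complement).
Krt12: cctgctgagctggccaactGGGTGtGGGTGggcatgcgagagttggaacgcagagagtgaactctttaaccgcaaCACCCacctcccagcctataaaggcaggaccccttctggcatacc
All 10 keratin windows of 250 bases held CACCC (100%), as did 52% of all windows. Klf4, a Kruppel-like factor of the corneal epithelium, read 1871, 1631 and 1599 in cornea and 125 and 83.9 in lens, 14.4-fold higher (limma adjusted p = 4.54e-07).

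Adhesion genes followed the keratins. Of 19 desmosome, hemidesmosome and adherens junction genes, 13 were higher in cornea (68.4%, against 23.5% of all genes) and 2 lower (10.5%, against 20.2%). Their median log2 difference was 2.40. Itgb4, the integrin of hemidesmosomes, read 1083, 1166 and 837 in cornea and -23.7 and -20.8 in lens (log2 difference 6.02 ± 0.20, limma adjusted p = 5.06e-08). Col17a1, its transmembrane collagen partner, read 1879.9, 2242 and 1525 in cornea and 40.2 and 29.9 in lens, 36.9-fold higher (limma adjusted p = 8.91e-07). Dsp, which encodes the desmosomal plaque protein desmoplakin, read 2948, 2759.7 and 3369 in cornea and 109.6 and 82.04 in lens, 27.3-fold higher (limma adjusted p = 4.36e-06).

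Plakophilin 1 (Pkp1) and plakoglobin (Jup), plaque proteins too, were 22.4-fold and 19.9-fold higher (limma adjusted p = 2.35e-05 and 6.45e-06). Dsc1 and Pkp2 were the 2 lower members. Dsc1, a desmosomal cadherin, read 39.3, 49.4 and 91.1 in cornea and 730.1 and 678 in lens (limma adjusted p = 8.05e-06), and Pkp2 read 20.8, 11.2 and 10.7 in cornea and 175 and 78.8 in lens (limma adjusted p = 0.000156). Dsc2, another desmosomal cadherin, ran the opposite way, at 1137, 871 and 571 in cornea and 60.5 and 48.96 in lens (limma adjusted p = 2.85e-06).

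Barrier and differentiation genes counted 17 of 29 higher (58.6%, against 23.5% of all genes) and 1 lower (3.45%, against 20.2%). The median log2 difference was 1.36. Sfn, which encodes the adaptor protein stratifin of stratified epithelium, read 1648, 1998 and 1162 in cornea and -99.7 and -108 in lens (log2 difference 6.63 ± 0.37, limma adjusted p = 5.21e-07). Both lens values were set to 0, so the size of this difference depends on the pseudocount. Cldn7, a tight junction claudin, read 955, 910.5 and 607 in cornea and 7.26 and -3.58 in lens (log2 difference 5.42 ± 0.25, limma adjusted p = 2.02e-07). The Ly6 family gene Slurp1 read 1077, 1532 and 1198 in cornea and 23.1 and 19.4 in lens, 34.2-fold higher (limma adjusted p = 1.21e-05). Its relative Psca read 1203, 2236 and 1581 in cornea and 115 and 77.6 in lens, 14.8-fold higher (limma adjusted p = 1.85e-06). None of these 4 genes overlapped between the tissues, as was so for 57.3% of all probe sets. Fabp5, a fatty acid binding protein, was the 1 lower member, at 571, 949.5 and 725 in cornea and 6267 and 6961 in lens, 8.85-fold lower (limma adjusted p = 4.51e-06). Lor had probe sets called both ways. Without cornea replicate 1 or 3 the lower calls came to 2.

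**Figure D3:**
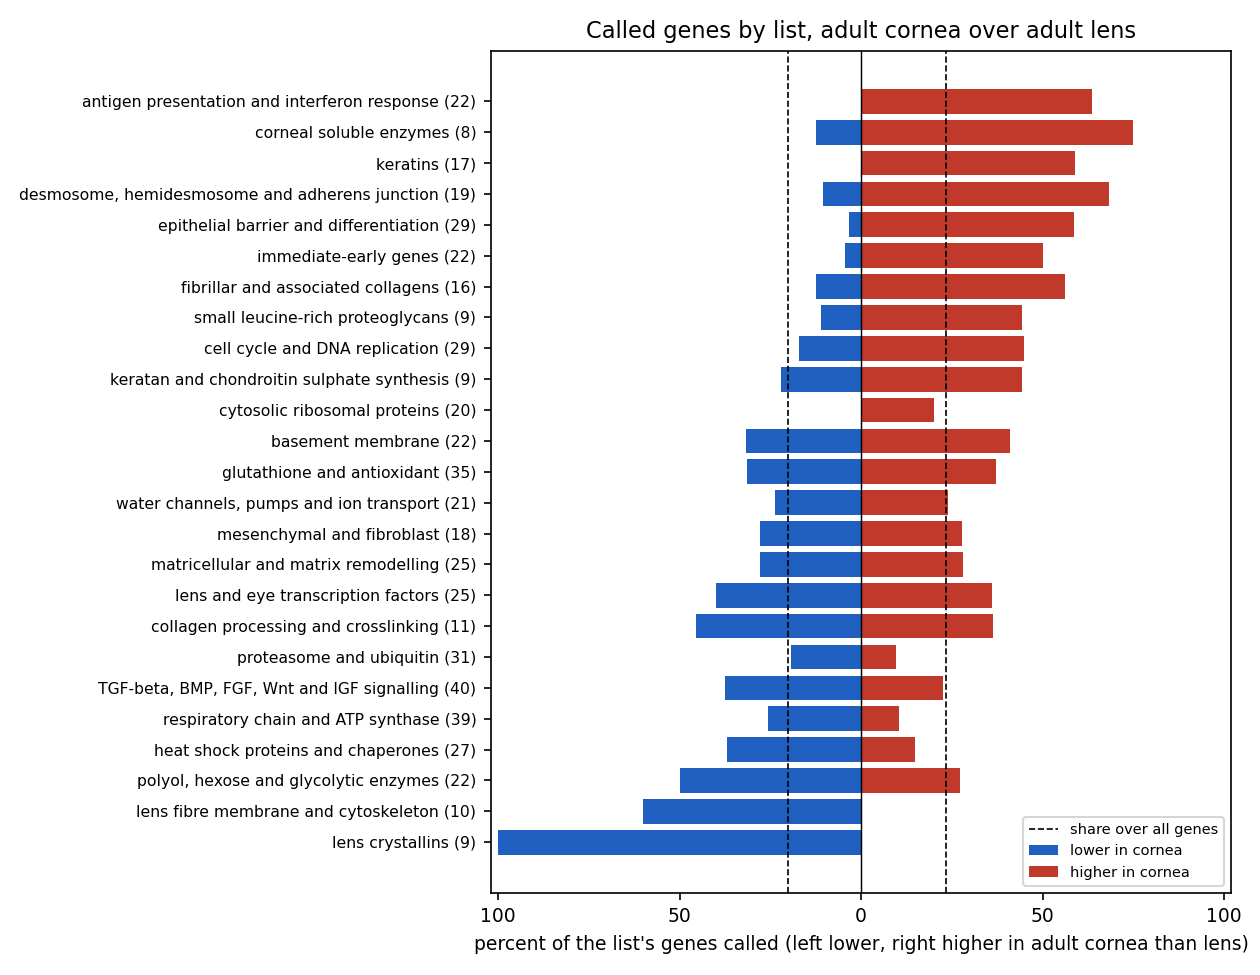
Percent of each gene list called lower (left) and higher (right) in adult cornea than in adult lens, with the number of genes measured in brackets and dashed lines at the shares over all genes, 20.2% and 23.5%. Crystallins and lens fibre genes fill the left side, and epithelial, collagen and antigen presentation lists the right.

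The stromal matrix was higher in cornea in its fibrils. Of 16 fibrillar and associated collagens 9 were higher (56.2%, against 23.5% of all genes) and 2 lower (12.5%, against 20.2%). Their median log2 difference was 1.22. Col1a1, a chain of collagen I and the bulk of the corneal fibril, read 2283, 2315 and 2239.7 in cornea and 39.9 and 43.6 in lens, 39.8-fold higher (limma adjusted p = 2.82e-08). Col1a2, its partner chain, read 1203, 1404 and 975 in cornea and 29.4 and -49.3 in lens (log2 difference 5.47 ± 0.35, limma adjusted p = 1.23e-06), although a second probe set, at 153, 143 and 186 in cornea and 220 and 270.3 in lens, was called lower (log2 difference -0.56, limma adjusted p = 0.0364). The Col1a2 difference was 6.23 without lens replicate 1 and 4.72 without lens replicate 2. Col5a2, of the collagen V that limits fibril width, read 381, 214 and 171 in cornea and 14.8 and 11.2 in lens, 8.89-fold higher (limma adjusted p = 1.19e-05).

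Collagen VI, which forms beaded microfilaments between the fibrils, was represented by Col6a1 at 675, 704 and 481 in cornea and 93.2 and 77.3 in lens, 6.22-fold higher (limma adjusted p = 3.94e-06). The call for Col11a2 (limma adjusted p = 0.0331) was lost when any 1 of the 5 arrays was left out. The 2 lower members, Col9a2 and Col12a1, are chains of collagens on the fibril surface, and 1 lower call was left without lens replicate 1. Tendon, built of the same fibrils, read 8130.2 and 8924 for Col1a1.

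Small leucine-rich proteoglycans had 4 of 9 higher (44.4%, against 23.5% of all genes) and 1 lower (11.1%, against 20.2%). Lum, the lumican that spaces the fibrils, read 1156, 783 and 595 in cornea and 35.2 and 28.5 in lens, 17.4-fold higher (limma adjusted p = 1.23e-06). Dcn, or decorin, read 2989.9, 2484 and 2922 in cornea and 242 and 157 in lens, 13.3-fold higher (limma adjusted p = 4.46e-07). Kera, described above, and Bgn, or biglycan, were 7.94-fold and 5.32-fold higher (limma adjusted p = 1.96e-05 and 1.08e-05). Ogn, which encodes osteoglycin or mimecan, went the opposite way at 115, 69.8 and 95.3 in cornea and 1216 and 771 in lens, 9.15-fold lower (limma adjusted p = 6.26e-06).

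Genes that fold and crosslink collagen divided into 4 higher (36.4%, against 23.5% of all genes) and 5 lower (45.5%, against 20.2%) of 11. Lower members included the prolyl hydroxylase subunit P4ha1, at 43.4, 49.2 and 28.9 in cornea and 485 and 312 in lens, and the lysyl hydroxylase Plod3, at 88.6, 119.8 and 209.8 in cornea and 734 and 667 in lens, 7.26-fold and 4.86-fold lower (limma adjusted p = 6.52e-06 and 0.000254). Tgm2, a crosslinking transglutaminase, read 1185, 1122 and 446 in cornea and 15.5 and 7.21 in lens, 31.7-fold higher (limma adjusted p = 2.62e-06), with cornea replicate 3 the lowest of the 3. Lox, the lysyl oxidase, read 125, 61.7 and 54.1 in cornea and -39.2 and 7.55 in lens (log2 difference 2.24 ± 0.34, limma adjusted p = 0.000466).

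Basement membrane genes had 9 of 22 higher (40.9%, against 23.5% of all genes) and 7 lower (31.8%, against 20.2%). Of the 5 measured chains of collagen IV, the network of the lens capsule, 3 were lower in cornea and 2, Col4a3 and Col4a4, were not called. Col4a1 read 219, 201 and 207 in cornea and 2484 and 1648 in lens, 9.06-fold lower (limma adjusted p = 1.11e-06). Col4a2 read 101, 83.2 and 114 in cornea and 1201 and 530.2 in lens, 7.12-fold lower (limma adjusted p = 3.04e-05), and Col4a5 read -3.40, 13.9 and -28.1 in cornea and 514 and 372 in lens (log2 difference -4.52 ± 0.28, limma adjusted p = 1.07e-06). Lens replicate 1 was above lens replicate 2 for these 3, and neither overlapped with cornea, as for 57.3% of all probe sets. Col8a1, a collagen of Descemet's membrane, read 70.1, 86.3 and 61.3 in cornea and 369 and 380.1 in lens, 4.44-fold lower (limma adjusted p = 1.36e-05).

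Both measured laminin chains of the epithelial anchoring complex were higher in cornea. Lamb3 read 172, 199 and 148 in cornea and 14.7 and 11.4 in lens, 6.48-fold higher (limma adjusted p = 4.19e-06), and Lama3 read 211, 268 and 154 in cornea and 29.7 and 38.7 in lens, 4.44-fold higher (limma adjusted p = 5.06e-05). Among the rest, Hspg2, Lama5, Agrn and Col7a1, the collagen of anchoring fibrils, were higher too, and Nid1, the laminin chain Lama2 and Col18a1 were lower.

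**Figure D4:**
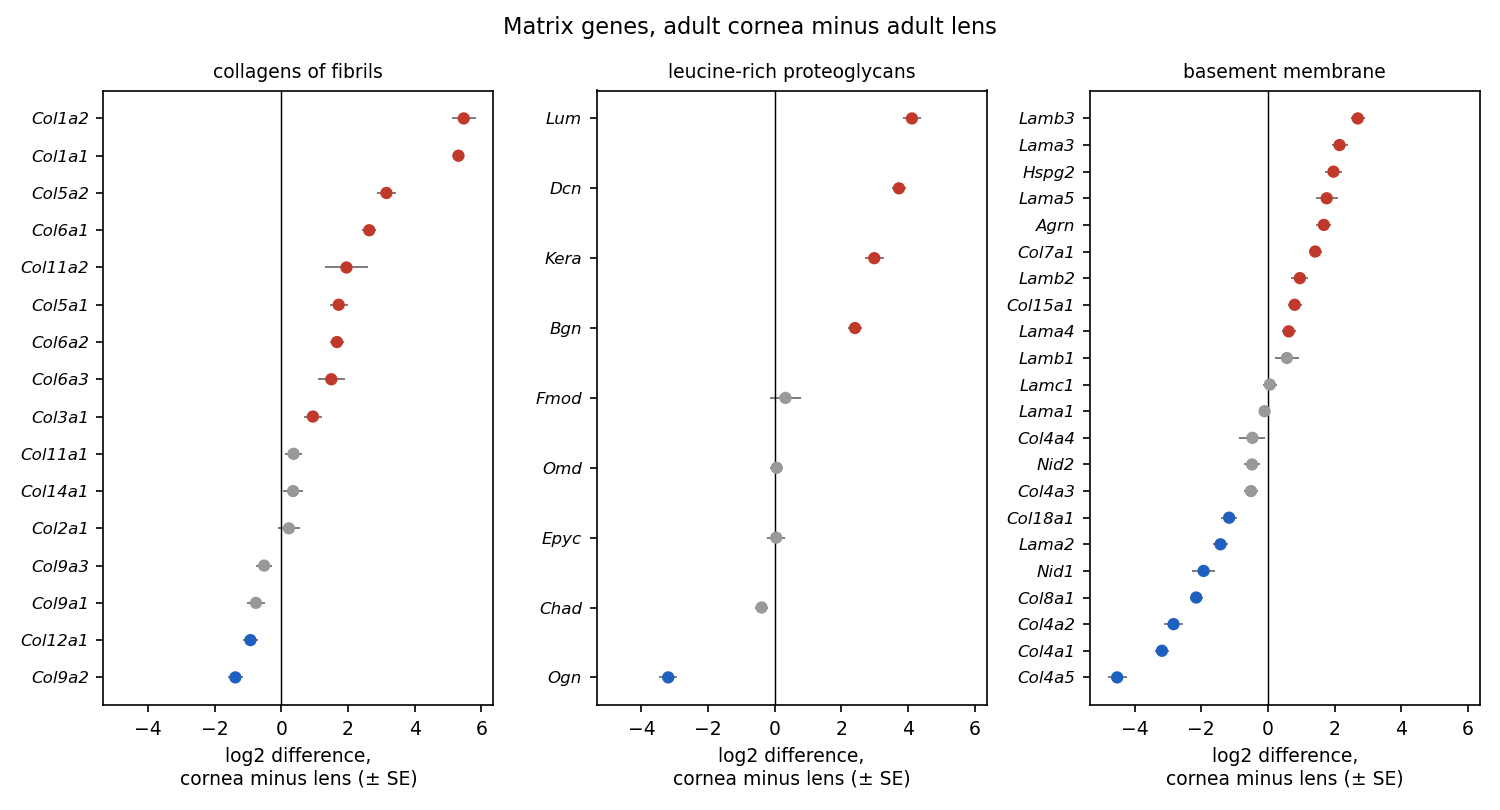
Log2 difference between adult cornea and adult lens (cornea minus lens, bars ± SE) for collagens of fibrils, small leucine-rich proteoglycans and basement membrane genes. Red points were called higher in cornea, blue lower and grey not called. The collagen IV chains Col4a5, Col4a1 and Col4a2 sit at the lower end of the right panel and the chains Lamb3 and Lama3 at its upper end.

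Matricellular and remodelling genes were even, with 7 of 25 higher and 7 lower, 28% each and near the 23.5% and 20.2% of all genes. Tgfbi, an abundant adhesion protein of corneal epithelium and stroma whose mutations cause corneal dystrophies in humans, read 2545, 2185 and 2117 in cornea and 86.97 and 74.04 in lens, 23.8-fold higher (limma adjusted p = 9.77e-08). Fn1 and Postn were higher too, Fn1 at 1361, 906 and 768 in cornea and 142 and 134 in lens (limma adjusted p = 6.78e-06). Mfap2, a microfibril protein, and Htra1, a secreted protease, were 3.86-fold and 3.75-fold lower (limma adjusted p = 1.13e-05 and 8.31e-05). Among mesenchymal genes 5 of 18 were higher and 5 lower, 27.8% each and near those shares. The lower ones came to 3 without cornea replicate 1 or in the fit of only the 5 arrays compared. The list's log2 differences ran from -3.83 to 2.35, so its genes do not point to 1 tissue. Twist2 and S100a4, often taken as markers of mesenchymal cells, were among the 5 lower in cornea. Twist2 read 188, 156 and 160.2 in cornea and 2533 and 2674 in lens, and S100a4 read 160.5, 196 and 162 in cornea and 2066 and 1721 in lens (limma adjusted p = 4.54e-07 and 5.15e-07). Keratan and chondroitin sulphate synthesis had 4 of 9 higher (44.4%, against 23.5% of all genes) and 2 lower (22.2%, near the 20.2% of all genes). Of the 2 lower ones 0 to 2 were called when 1 array was left out. The sulphate donor enzyme Papss2 led the higher ones, at 224, 194 and 113 in cornea and 25.8 and 13.8 in lens (limma adjusted p = 7.06e-05).

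Soluble enzymes that accumulate in the cornea, often called corneal crystallins, were higher in cornea for 6 of 8 genes and lower for 1. These shares of 75% and 12.5% stood against 23.5% and 20.2% of all genes, at a median log2 difference of 1.93. Aldh3a1, an aldehyde dehydrogenase that absorbs ultraviolet light, read 5874, 6378 and 7563 in cornea and 696 and 484 in lens, 11.03-fold higher (limma adjusted p = 6.41e-07), and a second probe set read 2928, 2835 and 2958 in cornea and 42.0 and -34.7 in lens, at a log2 difference of 6.58 that was 7.51 without lens replicate 1 and 5.65 without lens replicate 2. Gsto1, a glutathione transferase, read 5675, 5354 and 6138 in cornea and 854 and 659 in lens, 7.48-fold higher (limma adjusted p = 1.03e-06). Tkt, the transketolase of the pentose phosphate pathway, read 4459.8, 4496 and 4689.9 in cornea and 896 and 475 in lens, 6.82-fold higher (limma adjusted p = 7.83e-06). Aldh1a1, a related dehydrogenase, read 655, 708 and 489 in cornea and 1503 and 720.2 in lens and was not called (limma adjusted p = 0.092), and its lens arrays lay far apart. Without lens replicate 2, the lower of these, it was called lower (limma adjusted p = 0.0255).

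Antioxidant genes were divided, 13 of 35 higher (37.1%, against 23.5% of all genes) and 11 lower (31.4%, against 20.2%). The lower ones came to 7 in the fit of only the 5 arrays compared. Gsta4, a transferase that clears lipid aldehydes, read 3557, 3768 and 3849 in cornea and 212 and 65.6 in lens, 27.4-fold higher (limma adjusted p = 2.09e-06), and its log2 difference of 4.77 was 5.52 without lens replicate 1 and 4.03 without lens replicate 2. Gsta2 and Mgst3, other glutathione transferases, were 10.7-fold and 12.6-fold higher (limma adjusted p = 6.9e-07 and 1.7e-05), and the metallothionein Mt1 was 7.78-fold higher (limma adjusted p = 4.23e-05). Hmox1, the inducible heme oxygenase, was the leading gene of the other direction, at 160.1, 110.2 and 179.7 in cornea and 2206 and 1940.0 in lens, 12.8-fold lower (limma adjusted p = 7.97e-07).

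Heat shock and chaperone genes had 4 of 27 higher (14.8%, against 23.5% of all genes) and 10 lower (37%, against 20.2%). The higher ones came to 2 in the methods' test. Hspa1a, an inducible heat shock gene, read 1171, 1009 and 679 in cornea and 73.3 and 47.7 in lens, 12.5-fold higher (limma adjusted p = 2.03e-06). Its near copy Hspa1b read 1914, 1782 and 1968 in cornea and 171 and 105 in lens, 12.7-fold higher (limma adjusted p = 8.45e-07), and signal may be split between them. Hspb2, a small heat shock protein gene that lies next to Cryab, read 59.1, 75.8 and 70.2 in cornea and 1698 and 1812 in lens, 21.1-fold lower (limma adjusted p = 1.82e-07). The chaperonins Tcp1 and Hspe1 were 3.07-fold and 3.05-fold lower (limma adjusted p = 0.00125 and 0.000153).

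**Figure D5:**
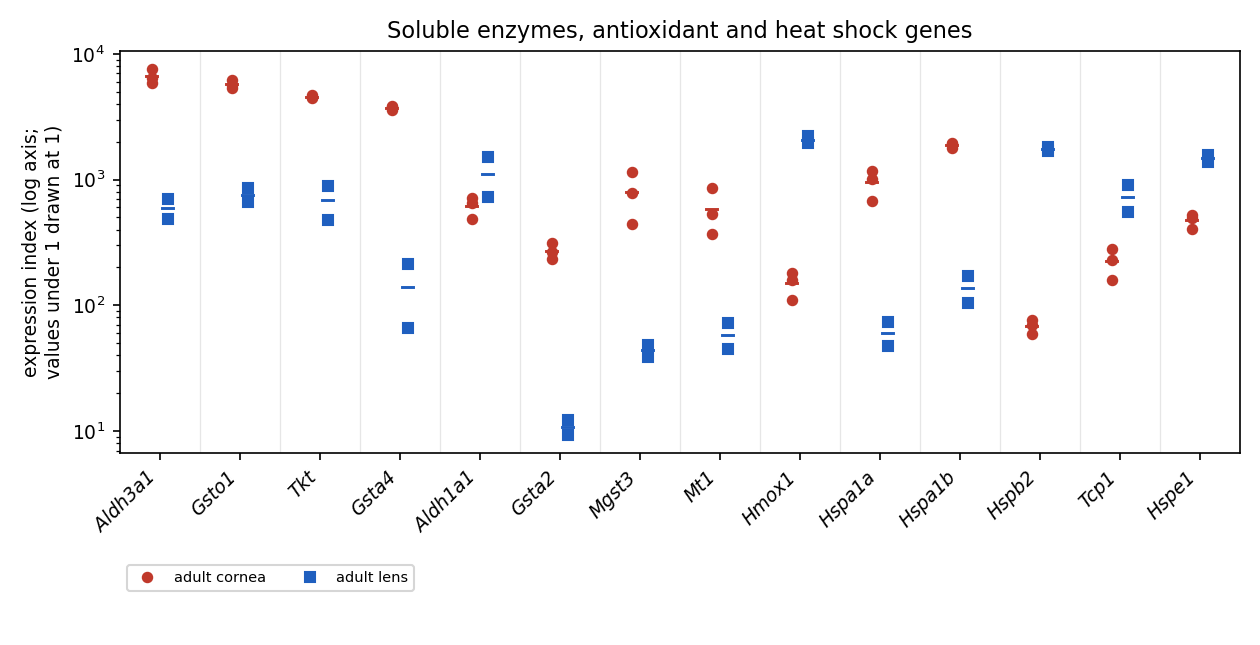
Expression index on a log axis for soluble enzymes, antioxidant genes and heat shock genes, with 3 points for adult cornea and 2 for adult lens and bars for means. Aldh3a1, Gsto1 and Tkt lie at 4459.8 or more in cornea and at 896 or less in lens, while Hmox1 and Hspb2 lie higher in lens.

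Of 22 genes of hexose use and glycolysis 11 were lower in cornea (50%, against 20.2% of all genes) and 6 higher (27.3%, against 23.5% of all genes), the higher ones 3 without lens replicate 2. Aldoc, an aldolase, read 88.8, 157 and 77.8 in cornea and 1546 and 904 in lens, 10.05-fold lower (limma adjusted p = 9.81e-06), and Pgam2, the muscle type phosphoglycerate mutase, read -0.189, 0.66 and 4.43 in cornea and 1133 and 869.7 in lens (log2 difference -5.84 ± 0.25, limma adjusted p = 1.82e-07). Slc2a1, the glucose carrier, was 2.45-fold lower (limma adjusted p = 0.00237), and Taldo1, of the pentose phosphate pathway, was 3.67-fold higher (limma adjusted p = 0.000366).

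Respiratory chain genes had 10 of 39 lower (25.6%, near the 20.2% of all genes) and 4 higher (10.3%, against 23.5% of all genes). The lower ones came to 6 without lens replicate 1 and the higher ones to 1 without lens replicate 2. Ndufc1 of complex I read 319, 230.4 and 147 in cornea and 964 and 598 in lens (limma adjusted p = 0.00121). Of 20 ribosomal protein genes 4 were higher and 0 lower, but the higher ones came to between 2 and 7 when 1 array was left out and to 9 with quantile normalization, and 2 were lower without cornea replicate 3. The ribosomal shares were 20% higher and 0% lower, against 23.5% and 20.2% of all genes. Proteasome genes had 3 of 31 higher (9.68%, against 23.5% of all genes) and 6 lower (19.4%, near the 20.2% of all genes). The higher ones came to 8 without cornea replicate 3 and 1 in the methods' test. Uchl1, a ubiquitin hydrolase, was 4.75-fold lower (limma adjusted p = 8.73e-06).

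Transport genes differed by member, with 5 of 21 higher and 5 lower, 23.8% each and near the 23.5% and 20.2% of all genes. With the arrays scaled to a common trimmed mean 8 were higher. Fxyd3, a regulator of the sodium pump in epithelia, read 1803, 1645 and 1749 in cornea and 68.97 and 45.2 in lens, 24.2-fold higher (limma adjusted p = 2.02e-07), while its relative Fxyd1 read 34.6, 67.2 and 70.7 in cornea and 1042 and 839 in lens, 13.3-fold lower (limma adjusted p = 2.99e-06). The sodium pump subunit Atp1b2 read 12.99, 20.8 and 17.5 in cornea and 935 and 702 in lens, 25.1-fold lower (limma adjusted p = 1.07e-06). A second Atp1b2 probe set read 44.8 or less on each cornea and lens array and was not called. Aqp1, the water channel of corneal endothelium and keratocytes, was at 149.9, 180.1 and 126 in cornea and 133 and 64.8 in lens, and the groups overlapped (limma adjusted p = 0.0951, 0.0126 without lens replicate 1).

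Growth factor signalling had 9 of 40 higher (22.5%, near the 23.5% of all genes) and 15 lower (37.5%, against 20.2%). The higher ones came to 5 in the fit of only the 5 arrays compared. Igfbp2, a carrier of insulin-like growth factors, read 1314, 1269 and 946 in cornea and 74.9 and 28.8 in lens, 18.5-fold higher (limma adjusted p = 1.52e-06). Its relatives ran the other way, Igfbp7 at 147, 155 and 119 in cornea and 1286 and 896 in lens and Igfbp3 at 10.5, -1.01 and 19.2 in cornea and 242 and 223 in lens (limma adjusted p = 9.16e-06 and 1.52e-05). Wnt4, a secreted Wnt ligand, read 323, 573 and 279 in cornea and -12.3 and -5.40 in lens (log2 difference 4.60 ± 0.31, limma adjusted p = 1.48e-06). Erbb3, a receptor for neuregulins, had 2 probe sets called in opposite directions, at log2 differences of -3.61 and 2.93 (limma adjusted p = 7.83e-06 and 4.16e-06).

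Cell cycle genes were higher in 13 of 29 (44.8%, against 23.5% of all genes) and lower in 5 (17.2%, against 20.2%). Mki67, a marker of dividing cells, read 223, 149 and 123 in cornea and 30.9 and 21.5 in lens, 4.20-fold higher (limma adjusted p = 0.000336), and Ccnd1, or cyclin D1, was 5.42-fold higher (limma adjusted p = 5.56e-05). Cdk2 and Rrm2, the small subunit of ribonucleotide reductase, were 16.6-fold and 6.34-fold lower (limma adjusted p = 1.65e-05 and 5.52e-06), although a second probe set of Cdk2 was not called. Immediate-early genes, which handling of tissue can induce, were higher for 11 of 22 and lower for 1. These shares of 50% and 4.55% stood against 23.5% and 20.2% of all genes. The higher ones came to 2 in the methods' test, and 2 were lower without cornea replicate 3. Fos read 208, 167 and 80.03 in cornea and 60.2 and 18.99 in lens (limma adjusted p = 0.00727, up to 0.114 with an array left out) and Junb 232, 345 and 171 in cornea and 65.1 and 44.03 in lens (limma adjusted p = 0.000388).

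Antigen presentation and interferon response genes were higher for 14 of 22 (63.6%, against 23.5% of all genes) and lower for 0. The median log2 difference was 1.35, and 1 gene was lower without cornea replicate 3. H2-K1, a class I heavy chain, read 1053, 1188 and 621 in cornea and 112 and 67.1 in lens (limma adjusted p = 1.41e-05). H2-D1, a heavy chain of very similar sequence, read 883, 1099 and 478 in cornea and 75.4 and 36.1 in lens (limma adjusted p = 1.63e-05). Psmb8, an immunoproteasome subunit, read 385, 338 and 210.0 in cornea and -6.90 and -25.8 in lens (log2 difference 4.31 ± 0.25, limma adjusted p = 6.41e-07). B2m, the class I light chain, read 523, 442 and 200.1 in cornea and 92.8 and 8.50 in lens, 7.29-fold higher (limma adjusted p = 0.00171), with a log2 difference of 3.94 without lens replicate 1 and 1.79 without lens replicate 2. Another H2-K1 probe set, at 46.7, 65.9 and 46.4 in cornea and 188 and 175 in lens, was called lower.

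Genes of other cell types lay beside these results, and their part in them was not tested. Over all genes 23.5% were higher and 20.2% lower, and the shares were 15% and 30% for leukocyte, 5.26% and 31.6% for muscle, 9.09% and 18.2% for vascular and 0% and 37.5% for photoreceptor genes. Of 20 leukocyte genes 3 were higher (5 without cornea replicate 2) and 6 lower in cornea, with sums of 1405 to 1894 in cornea and 3613 and 3678 in lens, carried in lens by C1qb at 98.98, 38.98 and 139 in cornea and 1378 and 1571 in lens. A second C1qb probe set read 11.3, 15.2 and 12.4 in cornea against 10.9 and 4.72 in lens. Muscle genes were summed at 724 to 917 in cornea and 3041 and 2494 in lens, 1 higher (0 without lens replicate 1) and 6 lower of 19, and the 6 lower were Pgam2, Eno3, Casq1, Actn3, Myh2 and Tcap. Pgam2, given above, and the enolase gene Eno3, at 46.3, 49.1 and 53.9 in cornea and 561 and 294 in lens, made up much of the lens sum, and both are also in the glycolysis list. Casq1, the calcium store protein of muscle, read 56.5, 28.1 and 67.5 in cornea and 345 and 276 in lens (limma adjusted p = 0.000132). The lower calls of Actn3 and Myh2 had limma adjusted p = 0.000462 and 0.000196. Ckm and Myh4, other genes of the list, stayed at or below 19.6 on all 5 arrays. Vascular genes had 1 of 11 higher and 2 lower, sums of 758 to 1022 in cornea and 1059 and 958 in lens, with Cdh5 at or near 0 in both, and 2 higher without lens replicate 2. Photoreceptor genes were lower for 6 of 16 and higher for 0, with sums of 1742, 2224 and 4002 in cornea and 5479 and 3724 in lens. Sag, the rod arrestin, read 239.9, 346 and 1204 in cornea and 1015 and 533 in lens but -5.27 and 1.81 in tendon, and cornea replicate 3 was above both lens arrays. The lower calls in this list came to 12 without cornea replicate 3, 3 without cornea replicate 1 and 2 without lens replicate 1. Of 4 corneal endothelial genes, Cdh2, Car2 and Col8a1 were lower in cornea, with sums of 429 to 603 in cornea and 2294 and 1369.5 in lens, and Cdh2 is also in the lens fibre list.

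Further cell type lists held 4 to 9 genes each, so 1 gene moves their shares widely. The shares higher and lower were 11.1% and 33.3% for melanocyte, 25% and 50% for red cell and 11.1% and 22.2% for adipocyte genes. They were 0% and 42.9% for Schwann cell and 33.3% and 16.7% for smooth muscle genes, against 23.5% and 20.2% of all genes. Among 9 melanocyte genes 1 was higher and 3 lower, with sums of 728 to 998 in cornea and 1270.3 and 1079 in lens, and the higher call, Dct, was lost when any of the 5 arrays was left out, while 5 were lower without cornea replicate 3. Red cell genes had 1 of 4 higher, the hemoglobin chain Hba-a1 at 467, 468 and 775 in cornea and 204 and 215 in lens (limma adjusted p = 0.00181), and 2 lower, with sums of 617 to 907 in cornea and 627 and 684 in lens. Adipocyte genes had 1 of 9 higher (2 without cornea replicate 2 or 3 or lens replicate 1) and 2 lower, with sums of 702 to 1004 in cornea and 1603 and 1857 in lens. Schwann cell genes had 0 of 7 higher and 3 lower, with sums of 891 to 1416 in cornea and 1791 and 1418 in lens, and smooth muscle genes had 2 of 6 higher (1 without cornea replicate 2 or either lens replicate) and 1 lower, with sums of 752 to 1474 in cornea and 1720.5 and 1267 in lens. Acta2, the smooth muscle actin, was that lower gene, at 8.60, 33.9 and 27.7 in cornea and 666 and 448 in lens (limma adjusted p = 1.1e-05).

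The 15 largest rises and the 15 largest falls were taken among called genes whose groups did not overlap and whose higher tissue averaged at least 200. The rises were Sfn, Aldh3a1, Itgb4, Adh1, Col1a2, Cldn7, Col1a1, Krt15, Krt14, Col17a1, Krt6a, Myh14, Slurp1, Sdc1 and Dap, with log2 differences of 5.00 to 6.63. This ranking took any probe set of a gene, so Aldh3a1 and Krt6a stand here by their second probe sets, which read at a log2 difference of 6.58 for Aldh3a1 and 5.16 for Krt6a, against 3.46 for Aldh3a1 and 3.81 for Krt6a by the brightest. Of the 15 rises 8, and of the 15 falls 8, had an array at or below 0 in the lower tissue, so their order depends on the pseudocount. Adh1, an alcohol dehydrogenase, read 1559, 1813 and 1677 in cornea and 35.8 and -13.97 in lens, and Sdc1, the epithelial proteoglycan syndecan 1, 791, 957 and 589 in cornea and 10.5 and 4.01 in lens (limma adjusted p = 1.24e-06 and 2.54e-07). The Adh1 difference was 6.73 without lens replicate 1 and 5.03 without lens replicate 2. Of these 15, 14 read at least 200 on at least 1 of the 2 P10 cornea arrays, all except Slurp1.

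The falls, with log2 differences of -6.85 to -5.15, mixed Bfsp1 and Mip with genes outside the lens lists: Relb, Mgat3, Pgam2, Tpgs1, Svs5, Gm12219, Apip, Usp17lc, Ddx56, Fcgr1, Synj2, Prm1 and Omp. Relb, an NF-kappa B subunit, read -211, -268 and -67.2 in cornea and 1968 and 1694 in lens (limma adjusted p = 3.48e-07). Prm1, a protamine of sperm, read 13.05, 56.4 and 9.74 in cornea and 1261 and 1451 in lens, and Omp, the olfactory marker protein, -10.1, 5.64 and -43.6 in cornea and 511 and 737 in lens (limma adjusted p = 5.68e-06 and 2.94e-07). All 15 averaged below 200 at P10. Of the 5 rises with other probe sets 4 had all of them called the same way. Of the 3 falls with other probe sets, Relb, Fcgr1 and Synj2, 0 did. The second probe sets of Fcgr1 and Synj2 were called higher in cornea, at log2 differences of 0.61 and 0.93 (limma adjusted p = 0.0467 and 0.00171). Both read at 47.0 or less on all 5 arrays. The second Relb probe set was not called (log2 difference -0.43, limma adjusted p = 0.133). Over the whole array 2073 genes had several probe sets, 1329 of them with any called, and of these 220 had all called the same way and 155 were called both ways.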

How the data were processed

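RNA from 9 mouse tissue preparations was hybridised to Affymetrix oligonucleotide arrays, per the labels. The deposited intensity values form a linear index. The authors, per the design text of the series, computed absolute expression with Microarray Suite and then normalized with the dChip invariant-set method and a model-based index, and the submitters' processing notes name MAS5. The sources used here do not settle which program wrote the deposited table, and detection calls were not used here. Values were kept as deposited, set to 0 where negative and taken as log2 of the value plus 16. A group-means model over all 9 arrays was fitted with limma 3.58.1 in R 4.3.3 (5 residual and 5.41 prior degrees of freedom, variances following the mean), with two-sided p-values adjusted by Benjamini-Hochberg over 12422 probe sets. On simulated data the same fit recovered 60% of 2-fold and 99% of 4-fold changes, and 4.22% of calls were false. The simulation changed 100 probe sets at each size, all among brighter ones, with independent normal noise of equal spread on every array. The 5071 calls here include dim probe sets, so these rates need not hold for them.

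Of the 12422 probe sets 10833 carry 1 symbol, 396 several and 1193 none, and 10817 matched the gene table by Entrez identifier. Of 791 genes in 35 lists, 628 were measured, and each was taken by the probe set with the highest mean over the 9 arrays. Genes were named as the 15 largest rises and the 15 largest falls, up to 5 called members of each list with those needed to state its count, and a fixed set of cornea and lens genes. Of that set Bfsp2, Lim2, Aqp3 and Aqp5 had no probe set of their own. Further members with other probe sets or small counts were named after their values were seen. The members, lists and rules were chosen with earlier results of these data known. Promoter sequences are from RefSeq, GRCm38.p6, searched on both strands over 250 bases. Alternatives covered pseudocounts of 1 and 64, a filter, 3 scalings, a fit of 5 arrays, array weights, a replicate block, the methods' test and each array left out.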

Additional observations from a re-analysis of the deposited data

How the results depend on the processing

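The counts of probe sets higher and lower in cornea stayed within 1.5 times of the reported 2667 and 2404 in the scaling, pseudocount, filter, weighting and 5-array alternatives, at 1894 to 3103 higher and 1829 to 2620 lower. The methods' test, which asks for 2-fold, a difference of 100 and a t-statistic on linear values, gave 765 higher and 1074 lower, its t-statistic alone passed 3921 probe sets, and 1011 passed after Benjamini-Hochberg. Leaving out each array in turn gave 1529 to 2831 higher and 1799 to 2692 lower, 1196 to 1912 higher and 1452 to 1734 lower by at least 2-fold, with 1529 and 1196 without lens replicate 2. With a pseudocount of 64, 860 higher and 977 lower reached 2-fold, since a larger pseudocount shrinks folds. Deviations from the group means of cornea and lens arrays with the same replicate number correlated at 0.15 for replicate 1 and -0.22 for replicate 2. The deviations of 2 lens arrays mirror each other, so these values cannot settle whether replicate numbers pair the samples. With the replicate block, which takes up cornea replicate 3 whole, 2697 were higher and 2590 lower. Under that block 12 photoreceptor genes, against 6, were lower and 6 proteasome genes, against 3, were higher. Of 180 called probe sets named by rule, 134 kept their call in all alternatives and 25 lost it only in the methods' test. Neither these 180 nor the 187 other called members of the lists turned direction in any alternative, and 59 of the 187 kept their call in all of them. Signal over background per array was not used here, and 2 lens arrays limit what small differences can show.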
